A study of Mus musculus with 62 samples.

Results

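Voluntary wheel running and sedentary housing were compared by acetylation of histone H3 at lysine 27 (H3K27ac) in mouse quadriceps, a large thigh muscle made mostly of fast, glycolytic fibers. The unit of comparison was an H3K27ac peak of the exercised list paired one to one with a peak of the sedentary list, with each covering at least 50% of the other. This gave 18426 matched regions, which were 53.3% of the 34572 peaks in the exercised list and 54.1% of the 34031 peaks in the sedentary list. The 2 libraries from exercised quadriceps (Ex) and the 2 from sedentary quadriceps (Sed) were 4 of the 62 samples in the series, which profiled histone marks, open chromatin and the binding of MED1 and NFAT in mouse muscles, in muscle-specific Pgc1a transgenic (mTg) mice and after running. Animals in both groups were wild type C57BL/6 mice by their labels, and the study describes them as young C57BL/6J males kept singly for several weeks. Ex mice had free access to a running wheel and were harvested hours after their last bout, and Sed mice had no wheel. All 4 libraries were made with 1 antibody from Active Motif, and by the study's methods each came from 1 quadriceps of 1 animal. Such a library of whole muscle holds vessels, connective tissue, immune cells and nerve as well as muscle fibers. A lower level from fewer cells of a type and a lower level of the mark per cell cannot be told apart in such tissue.

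H3K27ac is placed on nucleosomes at active promoters and enhancers by the acetyltransferases p300 and CBP and is removed by histone deacetylases. In muscle fibers the mark lies over genes of the contractile apparatus and of energy metabolism, where it surrounds sites bound by MEF2, MyoD-family, nuclear receptor and AP-1 factors. Endurance activity acts on these sites through calcium, calcineurin and NFAT, AMP-activated kinase, and the coactivator PGC1α with its partners of the estrogen-related receptor (ERR) and PPAR families, and it is known for shifting fibers toward oxidative metabolism. A peak was assigned to the gene with the nearest transcription start site (TSS), as the deposited annotation gives it, and this gene need not be the one that the region controls.

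Of the regions described below, 6 are shown by 200 bases centred on the control quadriceps ATAC-seq peak inside them, on the plus strand of mm10, with motif matches in capitals. The first 4 were among the regions with lower levels in Ex and the last 2 among those with higher levels. They were chosen because they carry the motif letters counted further on. ERR (TCAAGGTCA) contains the core nuclear receptor site (AGGTCA), so each ERR match is also a core site match.
Slc25a4, chr8:46220697-46220896, ERR with its core site on the reverse strand: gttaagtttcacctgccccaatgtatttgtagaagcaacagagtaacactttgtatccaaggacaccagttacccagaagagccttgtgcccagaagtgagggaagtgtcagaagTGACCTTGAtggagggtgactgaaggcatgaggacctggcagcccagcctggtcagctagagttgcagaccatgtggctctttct
Myl1, chr1:66975550-66975749, core sites and TEAD: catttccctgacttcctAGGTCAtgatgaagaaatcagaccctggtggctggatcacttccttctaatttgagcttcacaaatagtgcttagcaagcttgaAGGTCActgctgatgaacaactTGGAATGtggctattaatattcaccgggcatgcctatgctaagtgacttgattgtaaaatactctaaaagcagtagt
Pvalb, chr15:78206444-78206643, MEF2: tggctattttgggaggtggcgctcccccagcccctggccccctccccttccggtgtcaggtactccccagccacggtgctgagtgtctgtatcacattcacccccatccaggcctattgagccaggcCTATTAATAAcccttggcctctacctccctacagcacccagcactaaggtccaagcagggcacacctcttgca
Kcnj12, chr11:60985256-60985455, E-box and core site: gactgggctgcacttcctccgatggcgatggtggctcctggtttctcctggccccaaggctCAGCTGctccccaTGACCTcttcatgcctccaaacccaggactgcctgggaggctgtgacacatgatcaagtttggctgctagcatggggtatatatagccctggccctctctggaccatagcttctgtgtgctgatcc
Kcnv2, chr19:27364705-27364904, AP-1 and core site: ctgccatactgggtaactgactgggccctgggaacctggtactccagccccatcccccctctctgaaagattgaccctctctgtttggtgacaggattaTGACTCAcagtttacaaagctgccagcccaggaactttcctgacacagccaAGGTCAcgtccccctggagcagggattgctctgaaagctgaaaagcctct
Arhgap24, chr5:102468420-102468619, E-box and AP-1: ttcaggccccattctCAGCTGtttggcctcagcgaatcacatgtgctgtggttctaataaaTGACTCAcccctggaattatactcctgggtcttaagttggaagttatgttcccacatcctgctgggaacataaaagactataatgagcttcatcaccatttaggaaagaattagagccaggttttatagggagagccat

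The H3K27ac libraries held 18546989 and 17145917 tags in Ex and 23663625 and 20735446 in Sed, and the single input library of each group, which is chromatin without antibody, held 22883142 (Ex) and 20918250 (Sed). The level of a region in a library is the deposited log2 tag value minus log2 of the peak width in kb, centred on that library's median over the matched regions. A difference is the Ex mean minus the Sed mean of these levels, so that -1 is a level 2-fold lower in Ex. The authors normalized the Ex and Sed lists in separate runs. For that reason no test was made between them, and all differences are descriptions with n = 2 libraries per group. With 2 libraries against 2, an exact two-sided permutation test cannot give a p below 0.333 in any case.

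Most matched regions carried similar levels in Ex and Sed quadriceps. The median difference was 0.05, the 25th and 75th percentiles were -0.26 and 0.33, and 79.96% of regions were within 1.5-fold. Differences were below 0 in 8404 regions and above 0 in 10022. Across regions the Ex and Sed mean levels had a Spearman rank correlation of 0.846. Libraries of one group correlated at 0.913 (Ex) and 0.923 (Sed). Between groups the values were 0.817 for Ex replicate 1 with Sed replicate 1, 0.9004 for Ex replicate 1 with Sed replicate 2, 0.712 for Ex replicate 2 with Sed replicate 1, and 0.814 for Ex replicate 2 with Sed replicate 2. Ex replicate 2 and Sed replicate 1 therefore lay at the ends of the series of libraries, and Ex replicate 1 and Sed replicate 2 lay between them. The same order appeared on the first principal component, which held 70.2% of the variance among libraries, with loadings of 0.29 and 0.64 in Ex and -0.64 and -0.30 in Sed.

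A region was counted as higher or lower in Ex where the difference passed 2-fold and both Ex libraries lay on one side of both Sed libraries. By this rule 184 regions were higher in Ex (0.999% of the matched regions) and 355 were lower (1.93%). Without the 2-fold limit, both Ex libraries lay above both Sed libraries in 5715 regions (31.0%) and below them in 4728 regions (25.7%). The higher share of the called regions, 34.1%, depended on the scaling and on the fold. It was 42.8% without width subtraction (1152 higher and 1537 lower) and 48.9% at 1.5-fold (1762 and 1844). Quantile normalization gave 128 higher and 436 lower regions (22.7% higher), lowess centring along the mean level gave 90 and 518 (14.8%), and centring the differences on their own median gave 129 and 455 (22.1%). Each single library also moved the counts. They were 544 higher and 799 lower without Ex replicate 1, 140 and 204 without Ex replicate 2, 137 and 212 without Sed replicate 1, and 501 and 807 without Sed replicate 2. No region was called in the opposite direction under any of these settings. Leaving out a library, centring the differences or lowering the fold cannot reverse a call, since the rule already separates the libraries. Dropping the width term could hardly do so, since the matching bounds it. In the plot of Ex against Sed levels the called regions form 2 narrow bands beyond the 2-fold lines.

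**Figure D1:**
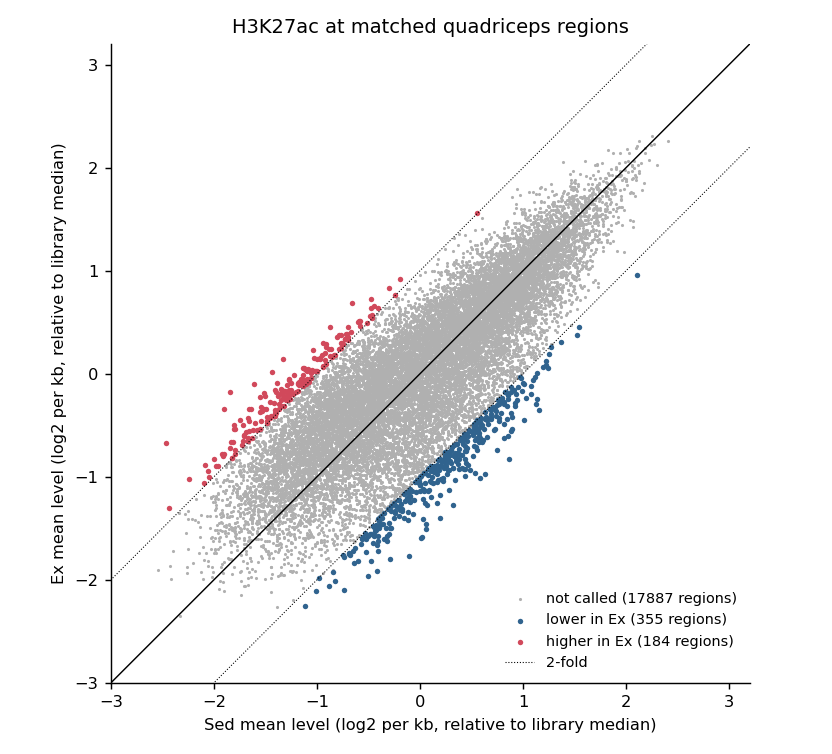
H3K27ac level of each matched region in Sed (x axis) and Ex (y axis), as the mean of 2 libraries in log2 per kb relative to the library median. The 355 regions lower in Ex (blue) and the 184 regions higher in Ex (red) lie past the dotted 2-fold lines, and the other 17887 regions (gray) lie around the line of equality.

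The called regions were mostly distal to promoters. Promoters were 22.1% of all matched regions, 3.10% of the lower regions and 7.07% of the higher regions. Regions inside genes made up 53.0% of all, 65.4% of the lower and 47.3% of the higher regions, and intergenic regions made up 24.99%, 31.5% and 45.7%. The median distance to the nearest TSS was 4154 bp for all regions, 18615 bp for the lower and 33105.5 bp for the higher ones. Lower regions were wide, with a median Sed peak of 2740 bp against 2157 bp for all, and higher regions were narrow at 1681 bp. Among the 4607 regions with the most H3K27ac, 1 was higher and 10 were lower in Ex, whereas among the 4607 with the least the counts were 109 and 102. GC content had a median of 50.6% in all regions, 46.6% in the lower and 47.1% in the higher ones.

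Lower regions carried more H3K27ac than the median region in Sed and less in Ex, whereas higher regions were weakly marked in Sed. The median level of the 355 lower regions was 0.43 and 0.15 in the 2 Sed libraries and -0.72 and -0.99 in the 2 Ex libraries. The median level of the 184 higher regions was -1.35 and -1.14 in Sed and -0.28 and 0.02 in Ex. The rule that chose them fixes the direction of these values. At the edge of the rule, a region near 4930449E18Rik at 1.0005 was inside and one near Ackr3 at 1.0000 was outside, and for the lower regions 1700025N23Rik at -1.0002 was inside and Alg9 at -0.9999 was outside.

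The input libraries moved with the calls. At the lower regions the median input level, computed per kb in the same way, was -0.57 in Ex and -0.02 in Sed, with a median difference of -0.53. At the higher regions it was -0.05 in Ex and -0.71 in Sed, with a median difference of 0.68, against 0.02 over all matched regions. The H3K27ac level above input had a median of 1.91 in Ex and 2.73 in Sed at the lower regions, 2.13 and 1.87 at the higher regions, and 2.22 and 2.37 over all. After subtraction of input, 47 regions were higher and 117 lower, of which 5 and 38 were among the regions called without it. Peak width moved as well, since the median log2 ratio of Ex to Sed width was -0.22 at lower, -0.13 at higher and -0.04 at all regions. Among the 8127 regions whose widths were within 1.2-fold of each other, 59 were higher and 137 lower. The part of input and width in the calls was not tested.

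Genes of the fast contractile apparatus carried less H3K27ac in Ex. Of the 18 genes on this list, 14 were nearest to 18 matched regions, of which 4 were lower in Ex, 0 were higher, 17 had a difference below 0 and 17 had both Ex libraries below both Sed libraries. Over all 18426 matched regions, 1.93% were lower, 8404 had a difference below 0 and 4728 had both Ex libraries below both Sed libraries. The median difference of the list was -0.74. Its median level was 0.25 and -0.01 in the 2 Ex libraries and 1.08 and 0.83 in the 2 Sed libraries. Over all alternative settings this median ran from -0.94 to -0.44. Input at the same regions had a median difference of -0.24, and the level above input was 2.57 in Ex and 3.26 in Sed.

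The fast gene with the largest difference was Myl1, which encodes the essential myosin light chains of fast fibers. Its distal region (chr1:66975123-66977004, at -31007 bp from the TSS, shown above with 2 core sites and a TEAD match) stood at -1.26 and -1.53 in Ex and at 0.07 and 0.33 in Sed, a difference of -1.59 ± 0.19 (SE, n = 2 per group). The groups did not overlap, but input there differed by -1.48. Pvalb, the calcium buffer parvalbumin of fast glycolytic fibers, had 2 lower regions. The first (chr15:78202065-78207449, annotated as intron, 1594 bp from the TSS, with the MEF2 match shown above) stood at -0.09 and -0.53 in Ex and 1.18 and 0.66 in Sed, a difference of -1.23 ± 0.34. The second (chr15:78191501-78198109) stood at -0.58 and -0.996 in Ex and 0.64 and -0.06 in Sed, a difference of -1.08 ± 0.41. Both Pvalb regions were separated between the groups, with input differences of -0.83 and -0.48. Of the remaining fast fiber regions, Jsrp1, a protein of the junctional sarcoplasmic reticulum, was lower at -1.06, Actn3, the Z-disc actinin of fast fibers, stood at -0.92, and Atp2a1, the fast calcium pump SERCA1, at -0.74. One region of Myoz1, a calcineurin-binding Z-disc protein, was the only one above 0, at 0.07.

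The fast myosin heavy chain genes had peaks that could not be matched one to one. Myh4, which encodes the IIB myosin of glycolytic fibers, lay under 1 Sed peak of 17511 bp that covered the promoter, where the Ex list held a peak of 7652 bp and another of 2166 bp. The summed width of peaks nearest Myh4 was 9818 bp in Ex and 18592 bp in Sed. Myh1, the IIX myosin, had 1 Ex peak of 859 bp against Sed peaks of 9068 and 2316 bp. Myh2, the IIA myosin, had 1 matched region with levels of -0.54 and -1.07 in Ex and -0.82 and -0.77 in Sed, which overlapped between groups and differed by -0.01 ± 0.27. Neither list held a peak with Myh7, the slow myosin, as its nearest gene. No fast fiber gene had a peak in Ex without overlap in Sed (0 of 30 peaks), whereas 11 of 35 Sed peaks had no overlap in Ex, beside 26.4% and 26.9% over the whole lists.

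Slow fiber genes did not move as one group. Their list had 21 regions at 10 of its 20 genes, with 0 called in either direction and a median of -0.40, and 14 regions were below 0. That median ran from -0.44 to 0.09 over the alternative settings, above 0 with matching at 80% overlap and after input subtraction. The list medians were -0.57 and -0.93 in Ex and -0.42 and -0.58 in Sed, so that Ex replicate 1 and Sed replicate 2 lay next to each other. Regions at Smtnl1 (-0.80), a smoothelin-like protein, and Myoz2 (-0.68, -0.65 and -0.52), the slow calsarcin, stood below 0. The 3 regions of Atp2a2, the calcium pump SERCA2 of slow fibers, stood at 0.41, 0.53 and 0.67. The Atp2a2 region with the most H3K27ac had levels of 1.39 and 1.12 in Ex and 0.22 and 0.97 in Sed, which did not overlap, with Sed replicate 2 close to Ex replicate 2.

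General sarcomere and muscle structure genes showed the same side as the fast genes. Of 42 regions at 20 of the 22 genes, 40 were below 0, 33 had both Ex libraries below both Sed libraries, 3 were lower and 0 higher, with a median of -0.69. The median level was 0.05 and -0.33 in Ex and 0.75 and 0.43 in Sed. Xirp1, an actin-binding repeat protein, stood at 0.01 and -0.47 in Ex and 1.103 and 0.96 in Sed, a difference of -1.26 ± 0.25. Actn2, an actinin of the Z-disc, differed by -1.03 ± 0.22. Input differed by -0.62 at the Xirp1 region and by -0.55 at the Actn2 region. The Acta1 region with the most H3K27ac, near the gene of skeletal actin, stood at 0.42 and 0.28 in Ex and 0.81 and 0.71 in Sed and was not called. Ckm, muscle creatine kinase, had levels of 0.63 and 0.18 in Ex and 0.94 and 0.56 in Sed, which overlapped, over a peak of 6221 bp in Ex and 11920 bp in Sed. Sarcomere genes had 4 of 77 Ex peaks without overlap in Sed and 44 of 106 Sed peaks without overlap in Ex. The shares over the whole lists were 26.4% and 26.9%. The summed peak length of sarcomere genes in Ex was 0.595 of that in Sed, beside 0.941 over the whole lists. Ngdn, the gene of neuroguidin and a control locus, differed by 0.17 ± 0.07 with levels of 0.82 and 0.87 in Ex and 0.61 and 0.74 in Sed.

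Markers of the other cell types in muscle did not all stand on one side. The myofiber identity markers had 13 regions at 8 of 14 genes, all 13 below 0 and 2 lower, with a median of -0.52. Each of these 8 genes is also on the fast fiber, the sarcomere or the glucose and glycolysis list. The 2 lower regions are those of Pvalb given above, so this list is not a separate readout. Their median level was 0.11 and -0.16 in Ex and 0.84 and 0.62 in Sed, and Myh4, Myh1, Tnnt3 and Ryr1 were among the 6 markers without a matched region. Macrophage and leukocyte markers had 13 regions at 8 of 16 genes, of which 12 were above 0, 8 had both Ex libraries above both Sed libraries and 0 were called, with a median of 0.48. Their median level was -1.06 and -0.62 in Ex and -1.66 and -1.28 in Sed, and regions of Fcgr1, an Fc receptor, and Adgre1, the macrophage antigen F4/80, reached 0.94 and 0.81. Such weak marking matters, since the median difference was 0.18 among the 4607 matched regions with the least H3K27ac and -0.02 among the 4607 with the most. The macrophage median ran from 0.18 to 0.74 over the settings, and its level above input was 2.08 in Ex and 1.99 in Sed. Of the defining markers of this class, Itgam, Lyz2, Cd68 and C1qa and the lymphocyte genes Cd3e and Cd79a had no matched region. Spi1, the myeloid factor PU.1, held the region with the most H3K27ac, which stood at -0.14 and -0.04 in Ex and at -0.06 in both Sed libraries and so did not separate the groups. Fibroblast and matrix markers had 47 regions at 14 of 16 genes, of which 1 was higher and 26 had both Ex libraries above both Sed libraries, with a median of 0.38. Their list medians were -0.32 and -0.39 in Ex and -0.76 and -0.37 in Sed, so Sed replicate 1 alone stood apart. The fibroblast median ran from 0.08 to 0.78 over the settings, and its level above input was 2.16 in Ex and 2.09 in Sed. The called fibroblast region lay near Pi16, a marker of adventitial fibroblasts, at -0.50 and -0.59 in Ex and -2.001 and -1.24 in Sed, a difference of 1.07 ± 0.38. Endothelial markers had 36 regions with 0 called and a median of 0.07 (-0.04 to 0.27 over the settings), and their medians of -0.62 and -0.73 in Ex and -0.66 and -0.71 in Sed overlapped. Pericyte and smooth muscle markers (13 regions) had a median of -0.24, satellite cell markers (11 regions, none at Pax7) 0.17 and adipocyte markers (10 regions) -0.04, with 0 called in each. The satellite median ran from -0.44 to 0.18 over the settings and was below that of all regions in 9 of 17, and the adipocyte median ran from -0.14 to 0.09. Nerve and Schwann cell markers (10 regions) had a median of 0.27 (-0.07 to 0.53) and 1 lower region, near Mbp (-1.08 ± 0.14), a myelin protein. Among peaks without overlap there were 37 of 101 Ex and 6 of 75 Sed peaks at fibroblast markers, 10 of 28 and 3 of 21 at macrophage markers, and 0 of 33 and 13 of 37 at myofiber markers. At satellite cell markers they were 7 of 27 Ex and 11 of 30 Sed peaks, and at adipocyte markers 5 of 15 and 1 of 13. Pericyte and smooth muscle markers had 2 of 21 Ex and 16 of 38 Sed peaks without overlap, on the side of the myofiber markers. Endothelial markers had 13 of 67 and 12 of 64, and nerve and Schwann cell markers had 5 of 15 and 3 of 13. Over the whole lists 26.4% of Ex and 26.9% of Sed peaks had no overlap, and the satellite Ex share (25.9%) was near this. By quantitative PCR of immune, vascular, satellite cell and myogenic marker RNAs, the study reported an unchanged cell composition in Ex muscle. The part of cell composition in the muscle gene values was not tested here.

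**Figure D2:**
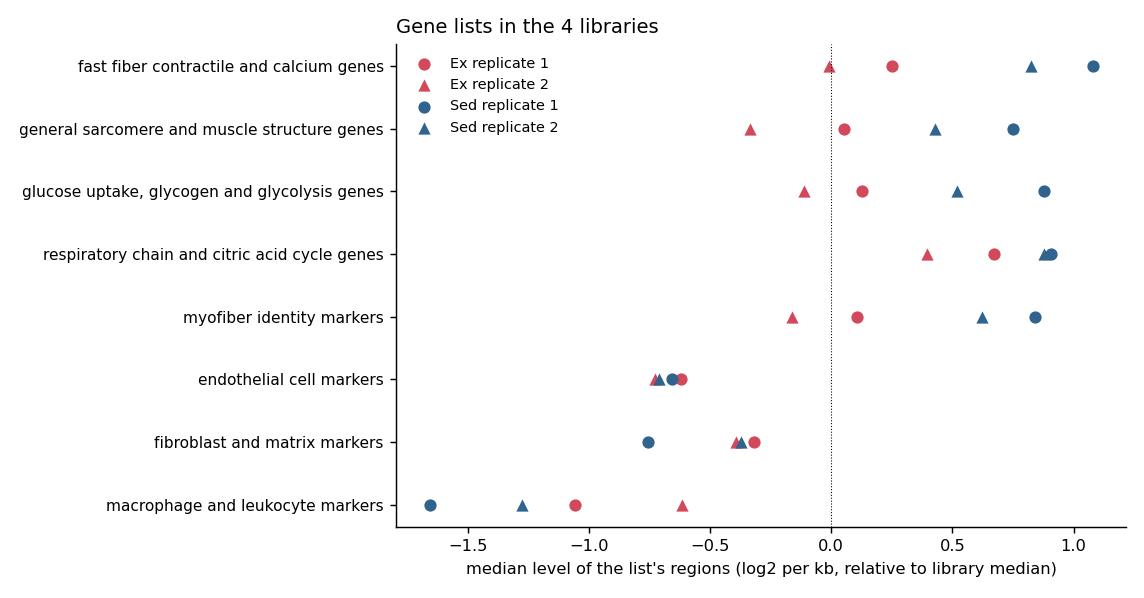
Median H3K27ac level of the regions of 8 gene lists (x axis, log2 per kb relative to the library median) in each library, with Ex in red, Sed in blue, replicate 1 as circles and replicate 2 as triangles. For fast fiber genes the Ex libraries sit at 0.25 and -0.01 and the Sed libraries at 1.08 and 0.83, and for macrophage markers the Ex libraries (-1.06 and -0.62) sit above the Sed libraries (-1.66 and -1.28).

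Genes of glucose use stood on the side of the contractile genes. The list of glucose uptake, glycogen and glycolysis genes had 38 regions at 22 of 26 genes, with 36 below 0, 30 separated in that direction, 3 lower and 0 higher, and a median of -0.61. Gpd1, the cytosolic glycerol 3-phosphate dehydrogenase, stood at -0.08 and -0.53 in Ex and 1.06 and 0.62 in Sed, a difference of -1.15 ± 0.31. Pgk1, a glycolytic kinase, differed by -1.06 ± 0.27 and Phkb, a subunit of phosphorylase kinase, by -1.02 ± 0.19. Input at these 3 regions differed by -0.50, -0.39 and -0.45.

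Genes of mitochondrial oxidation were also below 0 in most regions. Respiratory chain and citric acid cycle genes had 41 regions at 30 of 34 genes, of which 38 were below 0, 32 were separated in that direction, 2 were lower and 0 higher, with a median of -0.43. Slc25a4, the ADP and ATP exchanger of the inner mitochondrial membrane in heart and muscle, had the lowest value. Its region (chr8:46219708-46221646, at -9668 bp from the TSS, with the ERR match shown above) stood at -0.97 and -1.06 in Ex and at 0.72 and 0.45 in Sed, a difference of -1.60 ± 0.14 with an input difference of -0.98. Sucla2, a subunit of succinyl-CoA ligase, differed by -1.08 ± 0.56, and input differed by -1.08. Fatty acid genes had 56 regions at 29 of 38 genes with a median of -0.17, 36 below 0 and 1 lower (1.79%, beside 1.93% of all matched regions). The lower region was near Acsl6, a long-chain acyl-CoA synthetase (-1.59 and -1.41 in Ex, -0.30 and -0.49 in Sed, a difference of -1.10 ± 0.13). Acadl, the long-chain acyl-CoA dehydrogenase, had no matched region, and its promoter peak was 1930 bp wide in Ex and 5752 bp in Sed.

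The PGC1, ERR, PPAR and RXR regulators had 32 regions at 17 of 20 genes with 0 called, 24 below 0 and a median of -0.26. Ppargc1a, the gene of PGC1α, had 4 Ex and 9 Sed peaks, of which 2 were matched, at -0.76 and -0.58. The one with the most H3K27ac (chr5:51551608-51554597, 819 bp from the TSS) stood at 0.54 and 0.33 in Ex and 1.32 and 0.71 in Sed, which did not overlap. Peaks nearest Ppargc1a had a summed width of 12648 bp in Ex and 28653 bp in Sed. Of the 9 Sed peaks, 6 had no overlap in Ex, beside 26.9% over the whole Sed list. Other regions ranged from Nrip1, a corepressor of nuclear receptors, at -0.97 and Ppard, the receptor PPARδ, at -0.89 to Sirt3, a mitochondrial deacetylase, at 0.73. The Nrf1 promoter, the most marked region of this list, overlapped between groups at 1.77 and 1.47 in Ex and 1.73 and 2.16 in Sed.

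Transcription factors of muscle identity and calcium signaling genes held 1 or 2 lower regions per list, beside 1.93% lower over all regions. Myogenic and fiber type factors had 48 regions at 20 of 25 genes with 38 below 0, a median of -0.44 and 2 lower regions, near Eya4 (-1.24 ± 0.17) and Eya1 (-1.12 ± 0.45), both transcriptional coactivators. MEF2 factors and class II histone deacetylases had 16 regions with a median of -0.28, which ran from -0.61 to 0.21 over the settings, and 1 lower region near Hdac4 (-1.10 ± 0.59), a deacetylase that represses MEF2. The calcineurin, NFAT and calcium signaling list had 34 regions with a median of -0.14 and 1 lower region near Camk2d (-1.02 ± 0.24), a calcium and calmodulin kinase, and its median was 0.04 with matching at 80% overlap. Neuromuscular junction genes had 15 regions, a median of -0.13 and 1 lower region near Musk (-1.03 ± 0.36), the receptor kinase of the endplate.

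Lists of activity-induced, clock, growth and secreted-factor genes had medians near that of all regions. Early genes and NR4A receptors had 72 regions at 21 of 24 genes with 36 below 0 and a median of -0.01 (-0.10 to 0.09 over the settings). One region near Jun, an AP-1 subunit, was lower (-1.09 ± 0.34, at -113710 bp from the TSS, with an input difference of -1.44 and a value of 0.33 after input subtraction), and one near Klf6, a zinc finger factor, was higher (1.0005 ± 0.46, at 198518 bp). Clock genes had 40 regions, 0 called and a median of -0.11, and the Per1 region stood at 2.32 and 2.06 in Ex and 2.37 and 1.99 in Sed. Insulin and AMPK signaling genes had 65 regions, 2 lower, both near Irs2, an adaptor of the insulin receptor, and a median of -0.09. The Irs2 regions differed by -1.46 ± 0.56 and -1.14 ± 0.36, with input differences of -1.48 and -0.85, and the first was at 0.0091 after input subtraction. The list median was above 0 without width subtraction (0.12), without Sed replicate 2 (0.00306) and at widths within 1.2-fold (0.06). Growth and atrophy regulators had 48 regions and a median of 0.15, which was below 0 among the more strongly marked regions (-0.06), without Ex replicate 1 (-0.03) and after input subtraction (-0.04). Their called regions lay near Nos1, neuronal nitric oxide synthase (-1.31 ± 0.32, input difference -0.06), and Igf1r, the IGF1 receptor (1.02 ± 0.30). Angiogenic and secreted factors had 35 regions, a median of 0.01 (-0.11 to 0.22) and 3 lower regions, all near Vegfa, the principal endothelial growth factor. The most marked of these (chr17:46025008-46033265, annotated as intron, 3241 bp from the TSS) stood at 0.57 and 0.19 in Ex and 1.55 and 1.502 in Sed, a difference of -1.15 ± 0.19.

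Over the 16 pathway lists together, 25 of 621 regions were lower in Ex and 2 were higher, beside 1.93% and 0.999% of all matched regions. The lower count was 68 without Ex replicate 1, 10 without Ex replicate 2, 17 without Sed replicate 1, 67 without Sed replicate 2 and 5 after input subtraction. In 15 of the 16 lists the median was below that of all matched regions, whereas this held for 3 of the 8 marker lists. The plot of gene lists sets each median beside that of all regions.

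**Figure D3:**
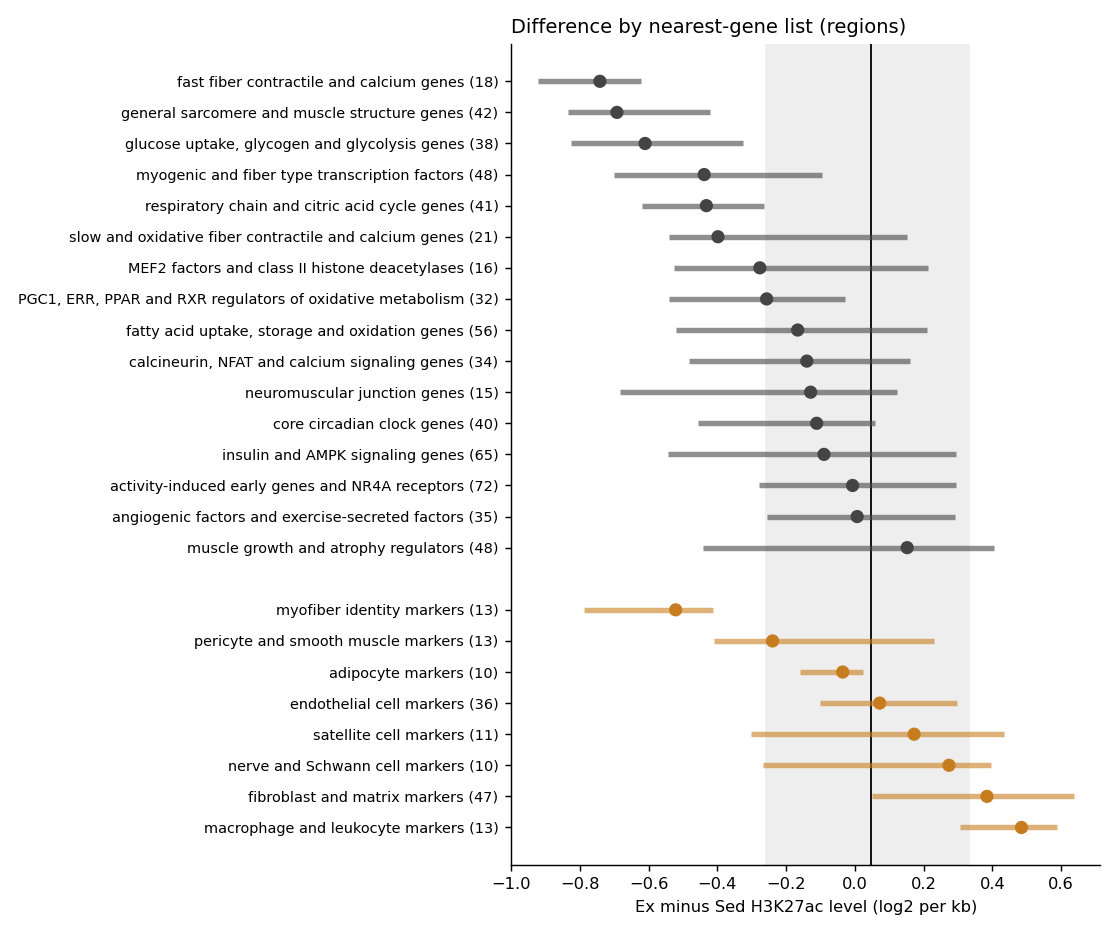
Difference in H3K27ac level, Ex minus Sed (x axis, log2 per kb), for the regions of each of the 24 gene lists, with the number of regions on each list in parentheses, pathway lists in gray and marker lists in orange. Points are medians, bars run from the 25th to the 75th percentile, and the gray band and black line give the same for all matched regions (-0.26 to 0.33, median 0.05). The fast fiber list (-0.74) lies lowest and the macrophage list (0.48) highest.

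The regions with the lowest differences were mostly distal and lay near genes of varied function. The lowest difference was near Kcnj12, an inward rectifier potassium channel of muscle (chr11:60984117-60986585, at -37213 bp from the TSS, shown above), which stood at -0.54 and -1.12 in Ex and 0.90 and 0.83 in Sed, a difference of -1.70 ± 0.29. A second lower region 9210 bp from the Kcnj12 TSS differed by -1.09 ± 0.23. Wnt11, a secreted Wnt ligand, had a region annotated at its 3′ UTR that stood at -0.997 and -1.55 in Ex and 0.41 and 0.23 in Sed, a difference of -1.59 ± 0.29 with an input difference of -0.24. Wnt11 had 6 matched regions with a median of 0.35, of which 2 were below 0, and 1 at -46264 bp from the TSS was higher (1.14), with levels of 0.17 and 0.20 in Ex and -1.101 and -0.81 in Sed. Map2k5, the kinase MEK5, had 2 lower regions (-1.52 ± 0.37 and -1.27 ± 0.33), and the region of Rps6ka2, a ribosomal S6 kinase, stood at -0.25 and -0.45 in Ex and 1.39 and 0.93 in Sed. Slc1a3, a glutamate transporter, differed by -1.66 ± 0.49 and Sstr3, a somatostatin receptor, by -1.61 ± 0.37. The other regions among the 12 lowest were near 4930474N09Rik (-1.61), Gm4861 (-1.60), 4921525O09Rik (-1.56) and Mir709 (-1.51), besides those of Slc25a4 and Myl1. In all 12 the Ex and Sed libraries did not overlap, which the rule requires.

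Several genes held more than 1 lower region, and at some of them input differed little. The 3 lower regions nearest Sec61b, a subunit of the protein translocon, lay 119851, 146535 and 196494 bp from its TSS and differed by -1.25 ± 0.26, -1.36 ± 0.18 and -1.17 ± 0.35, with input differences of 0.11, 0.05 and -0.48. Shisa2, a membrane protein of the endoplasmic reticulum, was the nearest gene of 3 lower regions annotated as intron, at -1.15 ± 0.58, -1.01 ± 0.18 and -1.29 ± 0.39, with input differences of -0.01, -0.03 and -1.001. The first of them stood at 0.54 and -0.60 in Ex and 1.01 and 1.23 in Sed, so that Ex replicate 2 lay far below Ex replicate 1. Over all genes, 179 were nearest to a higher region, 323 to a lower region and 3 to both. Of the 3701 genes with 2 or more matched regions, 804 had all differences below 0, 1051 had all above 0 and 1846 had both signs.

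Only 11 of the lower regions were promoters. The promoter of Fgf13, an intracellular regulator of sodium channels, stood at -0.83 and -1.42 in Ex and 0.35 and 0.22 in Sed, a difference of -1.41 ± 0.30. Fgf6, a growth factor made in muscle, had a promoter region at -0.91 in both Ex libraries and 0.38 and 0.25 in Sed (-1.23 ± 0.06). Slc2a12, the glucose transporter GLUT12, had levels of 0.05 and -0.28 in Ex and 1.32 and 0.84 in Sed (-1.19 ± 0.29), and Dpf3, a subunit of a chromatin remodeling complex, stood at 0.27 and -0.16 in Ex and 1.15 and 1.34 in Sed (-1.19 ± 0.24). The promoters of Thpo (-1.23) and Rims4 (-1.22) completed the 6 lowest.

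Most higher regions were weakly marked in Sed. Near Mir680-2 the levels were -0.80 and -0.56 in Ex and -2.01 and -2.92 in Sed, a difference of 1.79 ± 0.48, and near Exoc1, a subunit of the exocyst, they were -0.61 and 0.25 in Ex and -2.21 and -1.48 in Sed (1.67 ± 0.56). Input at these regions differed by 2.09 and 1.42, so the difference in input was of the same size. Rhog, a small GTPase, was among the few higher regions with marked levels, at 0.61 and 0.76 in Ex and -0.76 and -0.57 in Sed, a difference of 1.35 ± 0.12 with an input difference of 0.26. Kcnv2, a modulatory potassium channel subunit, stood at 0.40 and 0.50 in Ex and -0.89 and -0.87 in Sed, a difference of 1.33 ± 0.05 (chr19:27363969-27365732, with the AP-1 match shown above) and an input difference of 0.47. Col8a1, a chain of type VIII collagen, differed by 1.33 ± 0.17. The others among the 12 highest lay near Gm12159 (1.56), Mir763 (1.52), Mir466h (1.47), Zswim2 (1.45), 4933416E03Rik (1.33), Galnt15 (1.32) and Fam49a (1.32). Gm12159 had 3 higher regions, and Bicc1, an RNA-binding protein, Arhgap24, a regulator of Rac, and Mme, the peptidase neprilysin, had 2 each. One Arhgap24 region (chr5:102467471-102468897, shown above) stood at -0.38 and -0.05 in Ex and -1.36 and -1.39 in Sed.

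Promoters made up 13 of the higher regions. The largest difference was at Lst1, a leukocyte gene, with -0.57 and -0.12 in Ex and -1.64 and -1.65 in Sed (1.30 ± 0.23). Adam19, a membrane metalloprotease, stood at 0.22 and 0.45 in Ex and -0.79 and -0.66 in Sed (1.07 ± 0.13), and Cadm4, a cell adhesion molecule, differed by 1.101 ± 0.42. Pdxk-ps (1.16), Cyp2j9 (1.11) and 4931408D14Rik (1.06) were the other 3 of the 6 highest promoters.

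**Figure D4:**
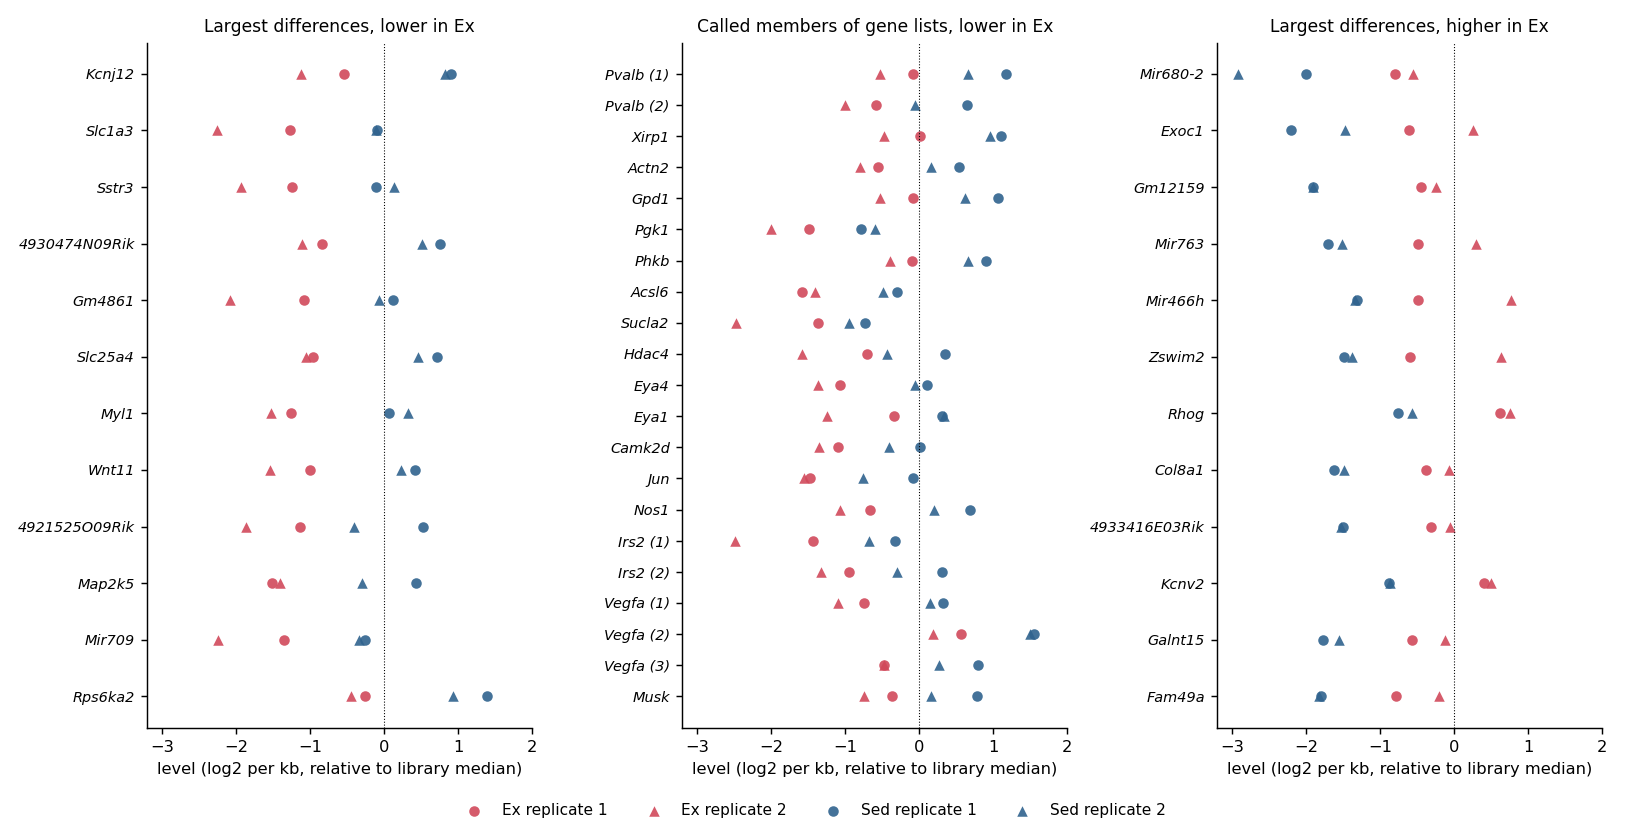
H3K27ac level (x axis, log2 per kb relative to the library median) in each library at the 12 regions with the lowest difference, at called members of the gene lists that were lower in Ex, and at the 12 regions with the highest difference, named by nearest gene, with Ex in red, Sed in blue, replicate 1 as circles and replicate 2 as triangles. At Kcnj12 the Ex libraries sit at -0.54 and -1.12 and the Sed libraries at 0.90 and 0.83, and at Kcnv2 the Ex libraries (0.40 and 0.50) sit above the Sed libraries (-0.89 and -0.87).

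H3K27ac in other mouse quadriceps, from libraries that did not choose the regions, lay nearer to Sed than to Ex at most called regions that had a match there. Regions that were not called also leaned to Sed. In a separate pair of wild-type quadriceps libraries (Quad), 315 of the lower regions had a match, and the level was nearer to the Sed than to the Ex mean in 305 (96.8%), beside 67.3% of the regions that were not called. Of the 106 higher regions with a match, 100 were nearer to Sed. The median level of the lower regions was 0.31 and 0.04 in the 2 Quad libraries, 0.25 and -0.02 in Sed and -0.85 and -1.12 in Ex at the same regions. Wild-type littermates of the transgenic mice (Wt) were nearer to Sed at 297 of 304 lower and 80 of 109 higher regions (73.4%), beside 66.5% of the regions that were not called. The transgenic quadriceps (mTg) was nearer to Sed at 204 of 236 lower and 53 of 56 higher regions, beside 70.5%. Soleus (Sol), a slow muscle, was nearer to Sed at 136 of 220 lower (61.8%) and 71 of 97 higher regions (73.2%), beside 56.8% of the regions that were not called. Sol at the lower regions and Wt at the higher regions thus stood near the share of the regions that were not called. Only regions with a match enter these shares. In Quad a match was found for 88.7% of lower, 57.6% of higher and 78.8% of uncalled regions, and in Wt for 85.6%, 59.2% and 74.2%. In mTg these were 66.5%, 30.4% and 61.4%, and in Sol 62.0%, 52.7% and 75.8%. Regions without a match had no level to compare, and the effect of leaving them out was not tested. Across all regions matched to it, Quad had rank correlations of 0.922 and 0.841 with the Sed libraries and 0.757 and 0.677 with the Ex libraries, and Wt, mTg and Sol also correlated more with each Sed library than with either Ex library. These lists were normalized separately too, and their values were set side by side with no test.

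**Figure D5:**
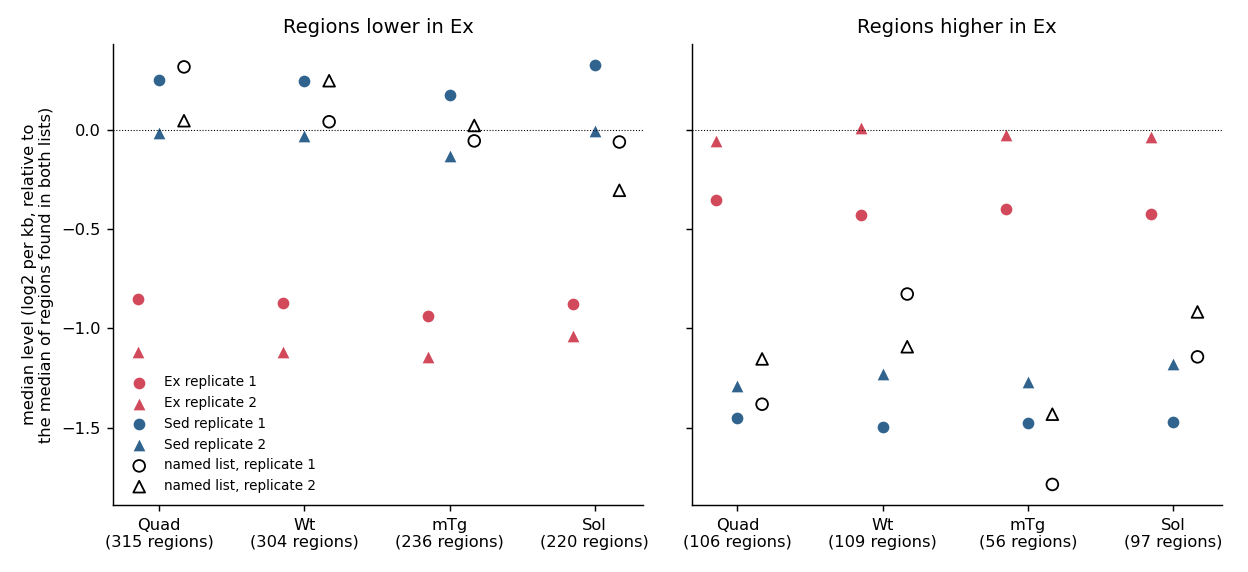
Median H3K27ac level (y axis, log2 per kb relative to the median of the regions found in both lists) of the lower and the higher regions with a match in the Quad, Wt, mTg and Sol lists (x axis), with Ex in red, Sed in blue and the 2 libraries of the named list as open symbols. At the lower regions the Quad libraries (0.31 and 0.04) sit beside Sed and above both Ex libraries.

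H3K4me2, a mark of promoters and enhancers whether active or not, differed little at the same places. Of 21611 matched H3K4me2 regions between Ex and Sed, the same rule called 4 higher (0.0185%) and 17 lower (0.0787%). The lower H3K27ac regions with an H3K4me2 match (138) had a median H3K4me2 difference of -0.14, with 89 below 0 (64.5%). The higher ones (54) had a median of 0.06, and regions not called (11219) had 0.02 with 47.2% below 0. Across the 11411 regions with both marks, the rank correlation of the 2 differences was 0.073. At fast fiber genes the median H3K4me2 difference was -0.07 over 11 regions whose median H3K27ac difference was -0.70. Open chromatin had been measured in control quadriceps, where 86.2% of the lower, 45.1% of the higher and 82.2% of all matched regions held an ATAC-seq peak.

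The authors had listed regions as differentially acetylated between these same 4 libraries, which were normalized together. Only 549 of the 2280 hypoacetylated and 33 of the 382 hyperacetylated regions fell on matched regions. The hypoacetylated list covered 550 of all 18426 matched regions, of which 208 were among the 355 lower regions (58.6%) and 342 were not called. The hyperacetylated list covered 33, of which 19 were among the 184 higher regions (10.3%) and 14 were not called. The values in those lists were chosen for differing, so they only describe. At the Kcnj12 region the difference on that scale was -0.91, at Slc25a4 -0.78, at the first Pvalb region -0.90 and at Kcnv2 0.67. The regions near Xirp1, Rps6ka2, Rhog and Lst1 were on neither list.

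Motif letters were searched on both strands in 500 bp at the centre of each region. The ERR motif was present in 1.11% of all matched regions, in 8 of the 355 lower regions (2.25%) and in 1 of the 184 higher regions (0.543%). The core nuclear receptor site was in 27.7% of all, 39.2% of the lower and 33.7% of the higher regions, and MEF2 was in 6.03%, 11.8% and 4.89%. The TEAD motif (CATTCCA) was in 6.71%, 8.45% and 7.07%, the E-box (CAGCTG) in 29.2%, 34.1% and 32.6%, and AP-1 (TGANTCA) in 13.5%, 16.9% and 16.8%. In 200 bp at the strongest ATAC-seq peak of a region, the MEF2 share was 4.14% in all, 14.1% in the lower and 2.41% in the higher regions. In the same windows the AP-1 share was 8.53%, 9.15% and 20.5%, and the core nuclear receptor share was 13.6%, 26.5% and 8.43%. The ERR motif was there in 0.297% of all regions and in 0 of 83 higher regions. Among 306 lower regions it was in 1 (0.327%), the Slc25a4 region shown above. All matched regions held more promoters (22.1%) than the lower (3.10%) or the higher regions (7.07%). Their median GC content was also higher, at 50.6% against 46.6% and 47.1%. Motif shares over distal regions alone or at equal GC content were not computed. Letters found in a window describe its sequence and do not show that a factor was bound.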

How the data were processed

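Per the study's methods and the file headers, the authors aligned reads uniquely to mm10 with Bowtie (version 1.2 in the submitters' processing notes), kept 1 tag per position, and used HOMER to call peaks against input over both replicates and to assign each to its nearest gene. The deposited log2 tag values are signal per peak scaled to total tags, from a separate normalization run for each list that also holds its input library. They were taken to be a regularized logarithm, which draws the libraries of a run together at weakly covered regions. A run held 1 group and its input, so the spread between replicates and the distance to input may be understated there. The effect on the differences between Ex and Sed was not tested. The deposited adjusted p-values of peaks served only as a filter. The authors' differential lists, from a run on all 4 libraries together, also hold fold changes and p-values, which were not used. A total of 57 Ex and 51 Sed gene names that a spreadsheet had turned into dates were restored.

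Peaks were paired where each covered 50% or more of the other, and levels were computed as described above with Python 3.11.15, numpy 2.4.6, pandas 2.3.3 and scipy 1.17.1. No test was run between lists. Regions, lists and rules were chosen with earlier results of these data known. Named were the 12 regions with the largest difference in each direction, up to 3 called regions of each list (1 of them, and 1 of the motifs searched, is not reported here) or else its most marked region, fixed loci, the 8 genes with the most called regions, and 6 promoters per direction. Other list members with a value in the text, such as Jsrp1, Actn3, Atp2a1, Smtnl1, Fcgr1 and Nrip1, were chosen after their values were seen. Sequences came from the mm10 reference (GRCm38.p6). Alternatives are given in the closing section.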

Additional observations from a re-analysis of the deposited data

How the results depend on the processing

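Each group had 2 libraries and lists were normalized separately, so no setting gives a test. Counts of regions depended on the settings. No region was called in opposite directions under any of them. The rule fixes this where libraries were left out, the fold was lowered, differences were centred or differences were taken within replicate numbers. Matching at 80% overlap and the limits on level, adjusted p and width kept a subset of the same pairs and only re-centred their levels. Such a shift could hardly reverse a call, nor could dropping the width term, which the matching bounds. Quantile normalization, lowess centring and input subtraction were not fixed in this way. The counts, higher then lower, were 53 and 103 with matching at 80% overlap, 1152 and 1537 without width subtraction, 21 and 82 in the regions above the median level, 68 and 112 with the authors' adjusted p under 0.001 in both lists, 47 and 117 after input subtraction, and 1762 and 1844 at 1.5-fold. Lowess centring gave 90 higher regions. Leaving out 1 library gave 137 to 544 higher and 204 to 807 lower regions. Of the settings chosen after seeing the data, Ex replicate 1 against Sed replicate 2 alone gave 107 and 133, and widths within 1.2-fold gave 59 and 137. The rank correlation was 0.693 in the regions above the median level and 0.656 after input subtraction. Peaks without a match numbered 16146 in Ex and 15605 in Sed, against 9141 and 9171 when any overlap counted, and 5721 and 7453 among peaks with adjusted p under 0.001. Of the 7 motifs, 5 were more frequent in the higher regions than in all regions at the centre and 2 at the ATAC-seq peak. The causes were not tested.

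List medians that lay apart between the groups crossed 0 for calcineurin and NFAT genes at 80% overlap (0.037), for insulin genes without width subtraction (0.118), on leaving out 1 library (-0.1568 to 0.003062, above 0 without Sed replicate 2) and at widths within 1.2-fold (0.0573), for growth genes in the regions above the median level (-0.061), on leaving out 1 library (-0.03003 to 0.1609, below 0 without Ex replicate 1) and after input subtraction (-0.044), and for Schwann cell markers with Ex replicate 1 against Sed replicate 2 (-0.074). Medians of lists whose groups overlapped or whose median was near 0 also crossed it, with ranges of -0.4443 to 0.09191 for slow fiber, -0.6112 to 0.2105 for MEF2 and deacetylase, -0.1025 to 0.08649 for early, -0.1103 to 0.2196 for angiogenic, -0.04227 to 0.2743 for endothelial, -0.4372 to 0.1819 for satellite cell and -0.1399 to 0.08727 for adipocyte genes. After input subtraction the values were -0.32 near Mir680-2, -0.016 near Zswim2, 0.33 near Jun and 0.0091 at one Irs2 region, each against its sign without it. Fast fiber, sarcomere, glycolysis, respiratory and myofiber medians were below that of all regions in all 17 settings, and fibroblast medians were above it in all 17. Fatty acid, PGC1 and ERR regulator, myogenic factor, clock, neuromuscular junction and pericyte medians were also below it in all 17. The 1.5-fold limit, centring the differences and taking them within replicate numbers leave this comparison unchanged by construction. The myofiber genes with a matched region are all on the fast fiber, sarcomere or glycolysis list as well. With the replicate block, in which differences were taken within each replicate number, 184 regions were higher and 357 lower. The same-numbered libraries deviated from their group means with a correlation of 0.061 over 2 pairs, so the numbers were not taken to pair the samples.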
